A study of Saccharomyces cerevisiae with 4 samples.

Results

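The genes described here carry proteins into the endoplasmic reticulum (ER) and move them on in vesicles through the Golgi to the cell surface. They were chosen by gene symbol alone, from probes with 1 platform symbol and a value on all 4 arrays. The symbols were those of the SEC, SPC, SRP, ERP, TRS, COG, ARF, GEA, SLY, BET and YIP series and of 23 further coat, cargo receptor, channel and fusion genes. The rule found 65 genes among 5946 features tested, of which 3099 were named genes. Of the 65, 59 belong to the secretory route. The other 6 share a symbol pattern only and were kept out of the steps: SPC19, SPC34, SPC42, SPC98 and SPC105 encode spindle pole or kinetochore proteins, and SRP1 encodes a nuclear import receptor. SRP40, a nucleolar gene caught in the same way, had a probe without a value. The route genes fell into 12 of 20 listed genes for entry into the ER, 13 of 23 for COPII vesicles, 7 of 13 for COPI vesicles, 22 of 38 for docking and transport at the Golgi and 5 of 11 for exocytosis. Another 46 listed route genes, SEC61 and SEC23 among them, had no measured probe of a single symbol and were not analysed here. Each gene was read by 1 probe.

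Each of the 4 two-colour arrays was hybridised with RNA of 2 W303-1A budding yeast strains. The first expressed CadA, a prokaryotic P-type ATPase of Listeria monocytogenes, and the second its mutant D398A, with alanine in place of an aspartate. Both were grown at 30 °C in SD minimal medium with all amino acids and adenine to an OD600 of 0.4 and then held for 1 h in 1 µM cadmium, so no array holds untreated cells. The labels name neither the promoter behind CadA nor the number of clones. The dyes were swapped, with CadA RNA in Cy5 on arrays 1 and 3, and in Cy3 on arrays 2 and 4. Separate cultures are not mentioned in the labels, and the p-values then cover only how these 4 arrays vary, which may be technical variation.

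Proteins with a signal sequence are brought to the ER by the signal recognition particle or by the Sec62/Sec63 complex and pass the membrane through a channel built around Sec61. COPII coats then bud vesicles from the ER, and receptors such as the p24 proteins and the Erv proteins load cargo into them. COPI coats return proteins from the Golgi to the ER, while tethers, Rab GTPases and SNARE proteins decide where vesicles fuse. In budding yeast many genes along this route are known targets of the unfolded protein response, the programme that also raises KAR2, the main ER chaperone.

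The deposited log ratio does not come with a stated direction. Values are therefore given turned by the dye labels, with the sign kept on arrays with CadA in Cy3 and reversed on arrays with CadA in Cy5. Positive values are on the side of KAR2, which read 0.28, 0.80, 0.85 and 2.23 on arrays 1 to 4. KAR2 only names the side here, and its own difference is not established. Its turned mean was 1.04 with an SD of 0.84 (limma unadjusted p = 0.015, adjusted p = 0.9999). In the signs as deposited its mean was 0.48, and 2 of 4 arrays were above 0. With Cy3 as the numerator of the ratio the KAR2 side would be CadA, and with Cy5 it would be D398A. If the table had already been turned to run from 1 strain to the other, the turned values hold dye effects and the signs as deposited hold the strain difference. In deposited signs, arrays of opposite dye orientation correlated at r between 0.009 and 0.35 over probes, and arrays of the same orientation at 0.18 and -0.02. Arrays 1 and 2 spread more widely than arrays 3 and 4, with SDs over all probes of 0.87, 0.95, 0.46 and 0.47. Between 10.8% and 38.5% of the variance on an array lay between its 48 print blocks, read here from the first part of each probe identifier. No intensities were used here. The number of arrays limits the precision.

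In turned signs the route genes lay more often on the KAR2 side than features in general, by a small amount. Of the 59 route genes 42 had a positive mean, as did all 6 genes outside the route, or 48 of the 65 together, where 47.4% of all features did. The median of the 59 means was 0.11 on the log2 scale, against -0.01 for all features. Means above 0.5 were reached by 9 route genes, against 6.63% of all features, and means below -0.5 by 0 of them, against 2.10%. The medians of the 59 genes on arrays 1 to 4 were 0.31, 0.04, 0.09 and -0.07. Array 4, where KAR2 read highest, thus lay on the other side. The shift was smallest without array 1, at 0.01, and on arrays 3 and 4 alone it was 0.07. The 6 genes outside the route had a median of 0.07.

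No gene among the 65 passed the threshold, an adjusted p of 0.05 over all 5946 features in limma. In turned signs 0.00% of all features passed above 0 and 0.00% below it. The lowest adjusted p among the 65 genes was 1.00. An unadjusted p under 0.05 was reached by 4 of them (ERV29, YIP3, SEC31 and ERP2), against 1.88% of all features. With ordinary statistics per gene it was reached by ERV29, YIP3, ERP3 and TRS20, against 2.47% of all features. A value above 0 on all 4 arrays was seen for 4 genes (ERV29, ERP2, YIP3 and RET3), or 6.15%, against 3.40% of all features. A value below 0 on all 4 was seen for 3 genes (ERP3, SEC20 and TRS20), or 4.62%, against 3.58%. With so few genes on each side these shares are near the background, and for 1 gene the smallest p that an exact two-sided sign test on 4 arrays allows is 0.125. That background is itself low in turned signs. In deposited signs 12.4% of all features were above 0 on all 4 arrays and 12.3% below, and 11.7% reached an unadjusted p under 0.05 in limma. The 1.88% in turned signs is less than an unadjusted threshold of 0.05 lets through by chance.

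**Figure D1:**
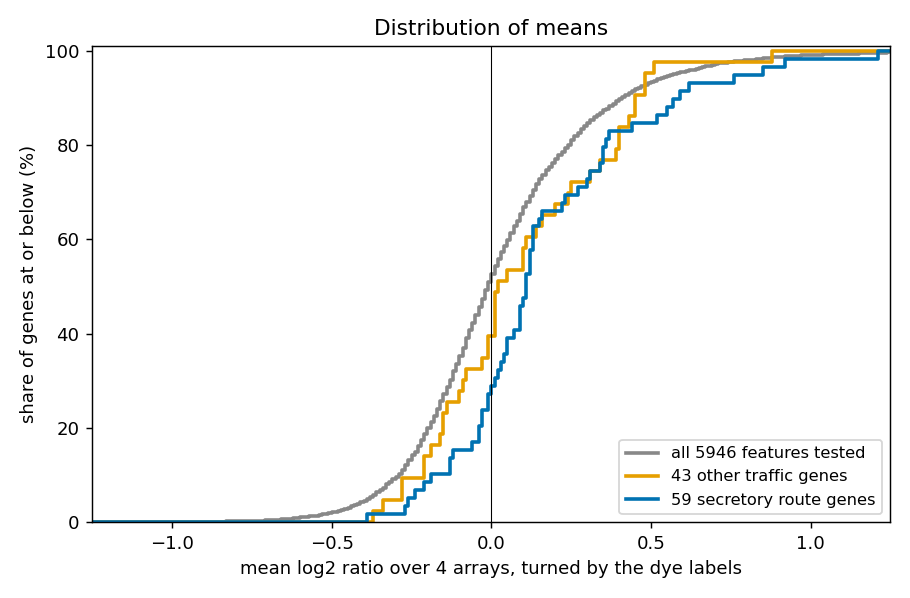
Share of genes (vertical axis, percent) whose mean log2 ratio over 4 arrays, turned by the dye labels, lies at or below the value on the horizontal axis. The curve of the 59 secretory route genes runs to the right of that of all 5946 features, with medians of 0.11 and -0.01, and the 43 other traffic genes have a median of 0.01.

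**Figure D2:**
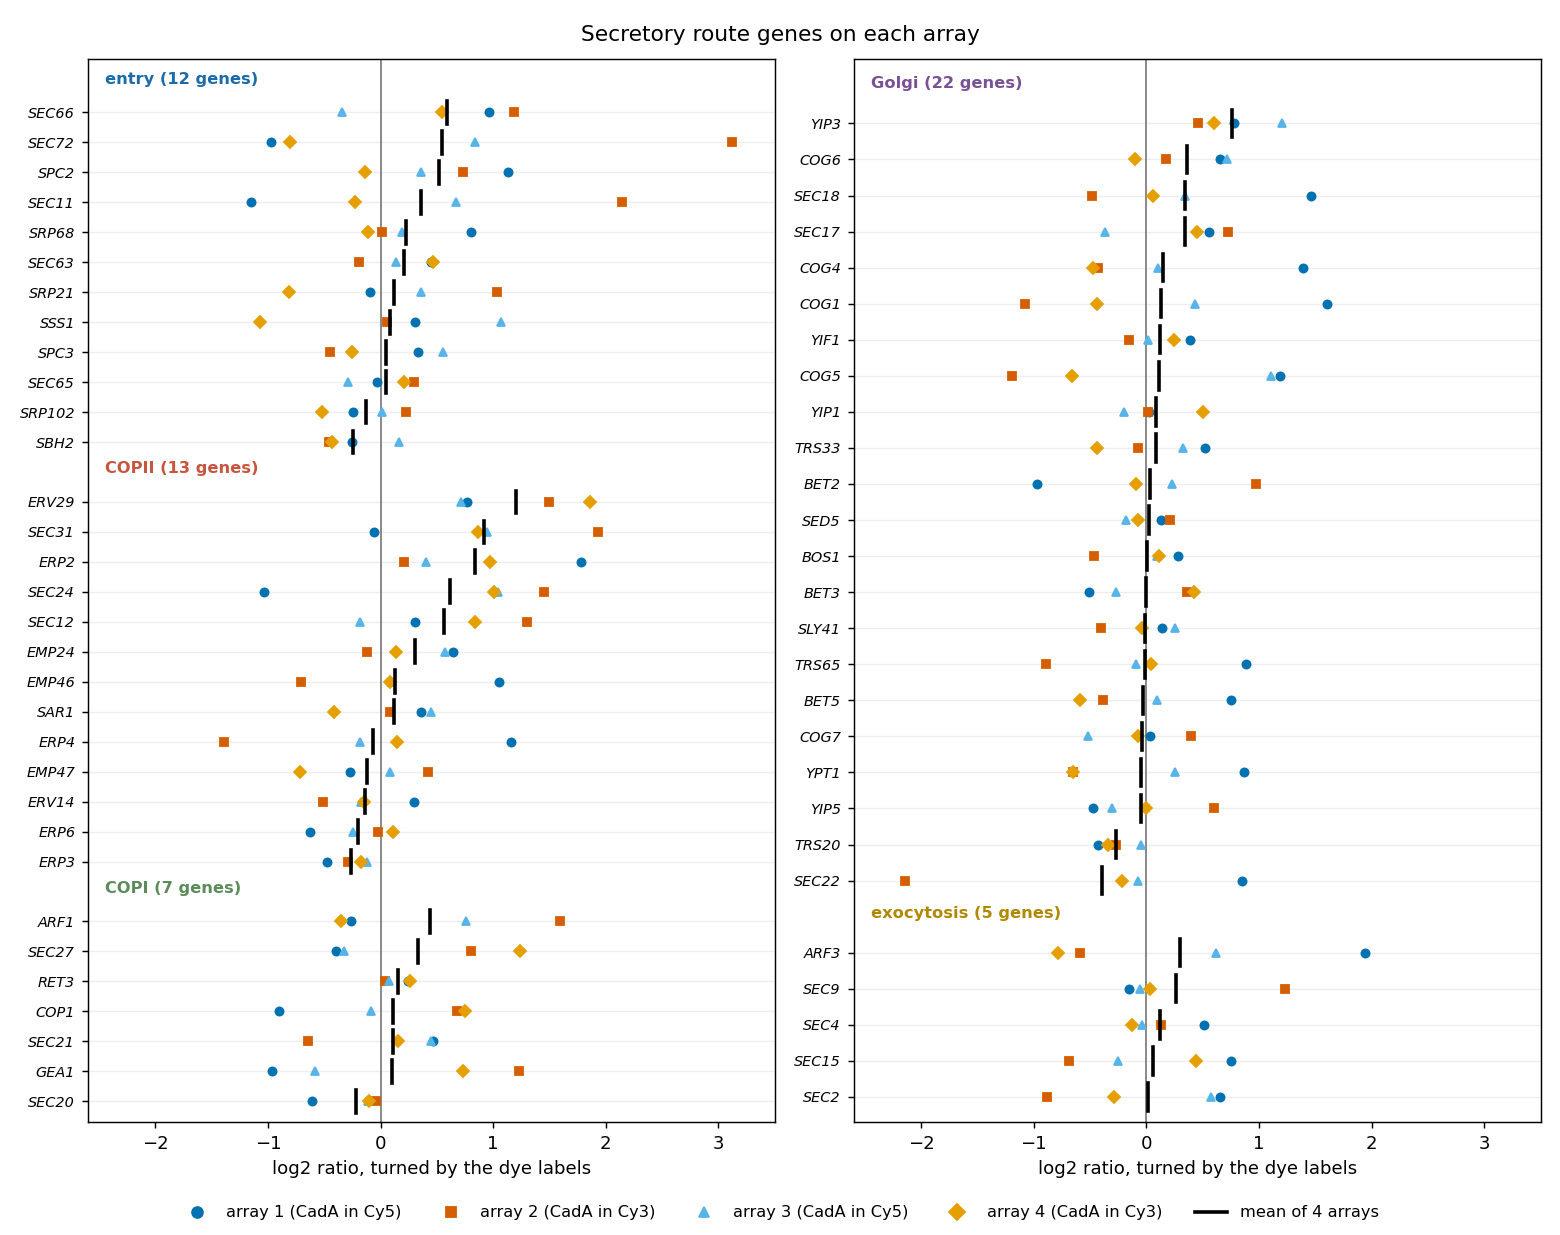
Each row is a gene of the secretory route, each point its log2 ratio on 1 array (turned by the dye labels) and each black bar its mean over 4 arrays. ERV29, ERP2, YIP3 and RET3 lie above 0 on every array, while most other genes have points on both sides of 0.

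The genes for entry into the ER had a median of 0.16, and 10 of 12 had a positive mean. The step's medians were 0.14, 0.26 and 0.28 on arrays 1 to 3 and -0.24 on array 4, where 3 of the 12 genes were above 0. Without array 2 the median was 0.03, and without array 4 it was 0.38. None of the 12 genes had 1 sign on all 4 arrays.

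Within entry, the highest means belonged to the Sec62/Sec63 complex, which serves proteins that enter after translation. SEC66, a small subunit of the complex, read 0.96, 1.18, -0.34 and 0.54, with a mean of 0.59 ± 0.67 (SD, n = 4). It was above 0 on all arrays but array 3. SEC72, another small subunit, read -0.97, 3.12, 0.84 and -0.80, a mean of 0.55 ± 1.90. Its sign differed between arrays of the same orientation, and without array 2 its mean was -0.31. SEC63, the J-domain subunit that binds Kar2 at the channel, averaged 0.21 ± 0.31 and was above 0 on arrays 1, 3 and 4. After block centring it was above 0 on all 4 arrays, at a mean of 0.23.

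The signal peptidase, which removes signal sequences, had 3 measured subunits with positive means. SPC2 read 1.13, 0.73, 0.36 and -0.14, with a mean of 0.52 ± 0.54. Its block had medians of 0.45, 0.41, 0.11 and -0.12, in the same order of arrays. The mean of SPC2 was 0.31 after block centring and 0.32 without array 1. SEC11, the catalytic subunit, read -1.15, 2.14, 0.67 and -0.23, a mean of 0.36 ± 1.40 that was -0.24 without array 2. SEC11 and SEC72 were printed in the same block, and the medians of that block were -0.87, 1.33, 0.56 and -0.53 on the 4 arrays. In both genes the order of the 4 arrays was that of the block medians, and after block centring they averaged 0.24 and 0.43. The part of the blocks in these values was not tested. SPC3, an essential subunit, averaged 0.05 ± 0.47.

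Genes that act earlier or at the channel itself had means between -0.25 and 0.23. Of the signal recognition particle, SRP68 averaged 0.23, SRP21 0.12 and SEC65 0.05. The gene for the beta subunit that anchors the particle's receptor in the ER membrane read -0.24, 0.22, 0.02 and -0.52, a mean of -0.13 ± 0.32. SSS1, the small subunit shared by both yeast channels, averaged 0.09 ± 0.89, with 1.07 on array 3 and -1.08 on array 4. SBH2, a subunit of the second channel of yeast, had the lowest mean of the step. It read -0.26, -0.46, 0.17 and -0.43, averaging -0.25 ± 0.29.

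COPII was the step with a positive median on every array, at 0.31, 0.08, 0.09 and 0.14, while all features stood between -0.08 and 0.03. The median of its 13 means was 0.13, and 8 of the 13 were positive. That number hides a wide spread, from -0.26 to 1.21, and 5 of the 13 genes exceeded 0.5. Without array 1 the median of the step was 0.04, without array 2 it was 0.34 and without array 4 it was 0.30.

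ERV29, the receptor that packs soluble glycoproteins such as the precursors of alpha factor and carboxypeptidase Y into COPII vesicles, had the highest mean of all 65 genes. It read 0.76, 1.49, 0.71 and 1.86 on arrays 1 to 4. All 4 values lay well above 0, and the pair of arrays with CadA in Cy3 gave the higher ones. The mean was 1.21 ± 0.56, or 2.31-fold if the logs are to base 2, with a standard error of 0.31 in limma (unadjusted p = 0.003, adjusted p = 1.00). It ranked 25 from the top among the 5946 features. Leaving out 1 array kept it between 0.99 and 1.37, and block centring gave 1.17.

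The genes of the coat and its assembly had 4 of 4 positive means, from 0.12 to 0.92, where 47.4% of all features had a positive mean. SEC31, whose protein forms the outer cage of the coat, read -0.06, 1.93, 0.94 and 0.86, a mean of 0.92 ± 0.81 (limma adjusted p = 1.00). Array 1 alone was below 0, and without array 2 the mean was 0.58. SEC24, the cargo-binding subunit of the inner coat, read -1.03, 1.45, 1.05 and 1.00, averaging 0.62 ± 1.12, and 0.34 without array 2. Both genes were printed in block 48, whose median on array 2 was 1.83 and between -0.05 and 0.08 on the others. After block centring SEC31 averaged 0.44 and SEC24 0.14.

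Coat assembly starts with the GTPase Sar1. SEC12, the exchange factor that loads Sar1 with GTP, read 0.31, 1.30, -0.19 and 0.84, a mean of 0.57 ± 0.65 that was 0.54 after block centring and 0.32 without array 2. SAR1 itself averaged 0.12 ± 0.39, and its highest and lowest values were 0.45 on array 3 and -0.42 on array 4.

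The p24 family, small membrane proteins that cycle between ER and Golgi and help to load GPI-anchored cargo, was divided. ERP2 read 1.78, 0.21, 0.40 and 0.97, all above 0, with a mean of 0.84 ± 0.71 (limma adjusted p = 1.00). Array 1 gave most of it, and without that array the mean was 0.53. EMP24, a partner of Erp2 in the same complex, averaged 0.31 ± 0.36 and was above 0 on all arrays but array 2. After block centring both ERP2 (mean 1.00) and EMP24 (0.39) were above 0 on all 4 arrays. ERP3 went the other way, with -0.47, -0.29, -0.12 and -0.17 and a mean of -0.26 ± 0.16. After block centring it averaged -0.18 and was above 0 on 1 array. ERP6 averaged -0.20 ± 0.32 and ERP4 -0.07 ± 1.05, the latter between 1.16 on array 1 and -1.40 on array 2.

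Of the other cargo receptors, none stood near ERV29. EMP46 and EMP47, lectin-like receptors of glycoproteins, averaged 0.13 and -0.12. ERV14, a receptor for membrane proteins, averaged -0.14 ± 0.33 and was above 0 on array 1 alone.

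**Figure D3:**
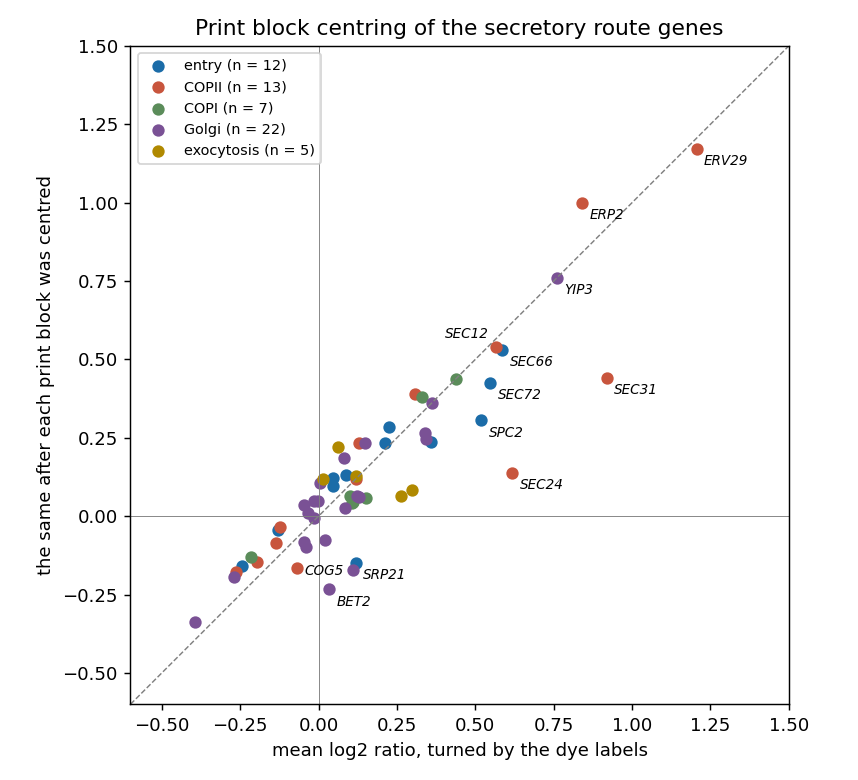
Mean log2 ratio of each secretory route gene (horizontal axis, turned by the dye labels) against the same mean after every print block of every array was centred on its median (vertical axis), with a dashed line where both are equal. ERV29, ERP2 and YIP3 stay near the line at 1.17, 1.00 and 0.76, while SEC31 and SEC24 lie below it at 0.44 and 0.14.

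The COPI genes had a median of 0.11 in turned signs, and 6 of 7 means were positive, but the step changed sign with the dye. Its medians were -0.40 and -0.08 on the arrays with CadA in Cy5 and 0.68 and 0.26 on those with CadA in Cy3. Without array 4 the median was 0.03, and without array 1 it was 0.45.

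RET3, the zeta subunit of the coat, was the steadiest gene of the step. It read 0.25, 0.04, 0.07 and 0.26, with a mean of 0.15 ± 0.12. Block centring left it above 0 on 3 arrays with a mean of 0.06. SEC20, an ER SNARE that receives returning vesicles, was its counterpart on the negative side. It read -0.61, -0.04, -0.11 and -0.10, a mean of -0.22 ± 0.26 that was -0.09 without array 1. After block centring it averaged -0.13 and was above 0 on 2 of 4 arrays.

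ARF1, the GTPase that recruits the COPI coat, read -0.26, 1.59, 0.76 and -0.35, a mean of 0.44 ± 0.92 that was 0.05 without array 2. SEC27, the beta-prime coat subunit, read -0.40, 0.80, -0.32 and 1.24, a mean of 0.33 ± 0.82 that was 0.17 without array 2 and 0.03 without array 4. GEA1, an exchange factor for Arf, read -0.97, 1.23, -0.59 and 0.73, averaging 0.10 ± 1.04, and -0.28 without array 2 and -0.11 without array 4. COP1, the alpha subunit, had the same alternation at -0.91, 0.68, -0.08 and 0.75, for a mean of 0.11 ± 0.77 that was -0.08 without array 2 and -0.10 without array 4. In SEC27, GEA1 and COP1 both arrays with CadA in Cy3 were above 0 and both others below. SEC21, the gamma subunit, did not follow them, with 0.46, -0.64, 0.45 and 0.15.

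The 22 Golgi genes had a median of 0.03, with 13 positive means, the lowest median of the 5 steps. Their medians on arrays 1 to 4 were 0.54, -0.21, 0.09 and -0.08, so this step also changed sign with the dye, in the opposite sense to COPI. Without array 1 the median was -0.06 and without array 2 it was 0.16.

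YIP3, a small membrane protein that binds Rab GTPases, stood apart from the rest of the step. It read 0.78, 0.46, 1.20 and 0.60, all above 0, with a mean of 0.76 ± 0.32 (limma unadjusted p = 0.021, adjusted p = 1.00). Leaving out 1 array kept it between 0.61 and 0.86, and block centring gave 0.76 with 4 of 4 arrays above 0. Among the other measured genes with a YIP or YIF symbol, YIF1 averaged 0.12, YIP1 0.09 and YIP5 -0.05.

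The COG complex tethers vesicles that recycle Golgi enzymes, and 4 of its 5 measured subunits had positive means, against 47.4% of all features. With print blocks centred 3 of the 5 had positive means, and COG5 averaged -0.17. COG6 read 0.65, 0.17, 0.72 and -0.10, for a mean of 0.36 ± 0.39. COG4 averaged 0.15, COG1 0.13, COG5 0.11 and COG7 -0.04. These small means come from large values of opposite sign, since COG1 read 1.60 on array 1 and -1.08 on array 2, and COG5 1.19 and -1.20.

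TRAPP, the exchange factor of the Rab GTPase Ypt1, had 1 positive mean among 5 genes, where 47.4% of all features had a positive mean. With print blocks centred 4 of the 5 means were positive. TRS20 read -0.43, -0.27, -0.04 and -0.34, all below 0, with a mean of -0.27 ± 0.16. After block centring it was above 0 on 1 array, at a mean of -0.19. TRS33 averaged 0.08, while BET3, TRS65 and BET5 lay between -0.03 and 0.00. YPT1 itself averaged -0.05 ± 0.74, and BET2, a subunit of the enzyme that attaches lipid to Rab proteins, 0.03 ± 0.81.

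Among the fusion genes SEC22, a SNARE of vesicles between ER and Golgi, had the lowest mean of all 65 genes. It read 0.85, -2.15, -0.08 and -0.21, a mean of -0.40 ± 1.26 that rested on array 2 and was 0.19 without it. SED5, the Golgi SNARE with which Sec22 pairs, averaged 0.02 ± 0.18 and BOS1 0.00 ± 0.32. SEC18 and SEC17, which take SNARE complexes apart after fusion, averaged 0.34 ± 0.82 and 0.34 ± 0.48. SEC17 was above 0 on all arrays but array 3, while SEC18 read 1.46 on array 1 and averaged -0.03 without it. SLY41, found in yeast as a suppressor of the loss of Ypt1, averaged -0.01.

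The 5 exocytosis genes all had positive means, with a median of 0.12, yet the step was below 0 on arrays 2 to 4. Its medians were 0.66 on array 1 and -0.59, -0.03 and -0.12 on the others, and without array 1 the median was -0.17. ARF3, an Arf GTPase of the cell surface, read 1.94, -0.59, 0.62 and -0.78, a mean of 0.30 ± 1.26 that was -0.25 without array 1 and 0.08 after block centring. SEC9, a SNARE of the plasma membrane, read -0.15, 1.23, -0.06 and 0.03, averaging 0.26 ± 0.65, -0.06 without array 2 and 0.06 after block centring. SEC4, the Rab GTPase of secretory vesicles, averaged 0.12 ± 0.28. SEC15, the exocyst subunit that binds Sec4, read 0.75, -0.69, -0.25 and 0.44, with a mean of 0.06 ± 0.66 that was -0.17 without array 1. SEC2, the exchange factor of Sec4, read 0.66, -0.88, 0.57 and -0.29, a mean of 0.01 ± 0.73 that was -0.20 without array 1.

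**Figure D4:**
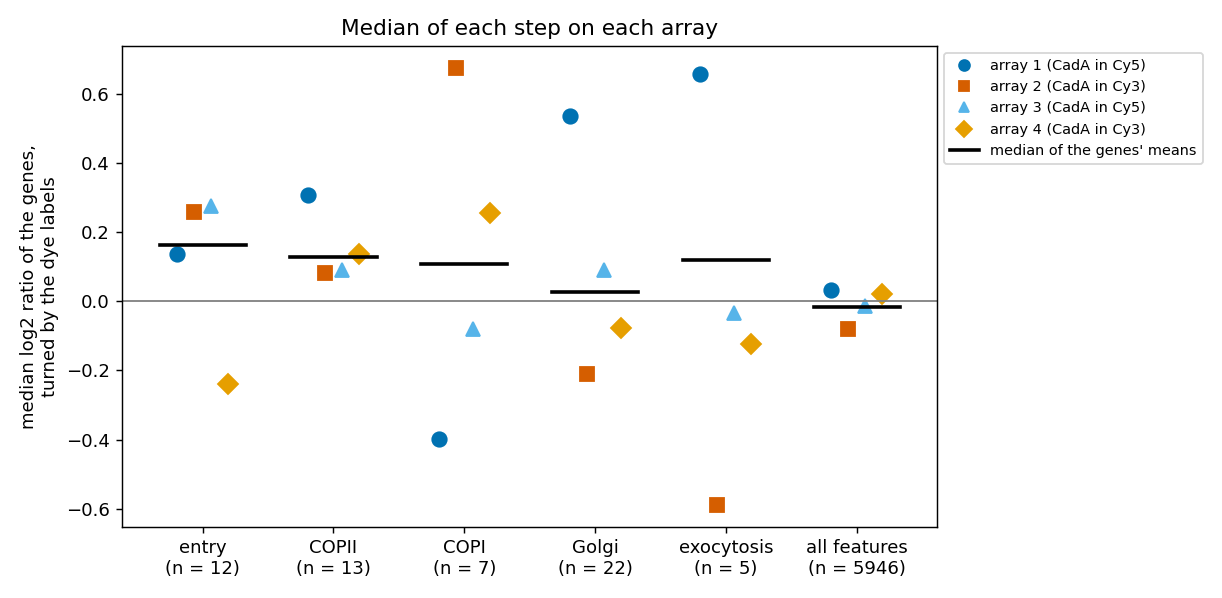
Median log2 ratio (vertical axis, turned by the dye labels) of the genes of each step on each array, with a black bar for the median of the genes' means and all 5946 features at the right. COPII lies above 0 on 4 of 4 arrays, while COPI and Golgi change sign with the dye in opposite senses.

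The order of the steps by median was entry at 0.16, COPII at 0.13, exocytosis at 0.12, COPI at 0.11 and Golgi at 0.03. These medians differ by less than the SD of the 4 array medians within entry (0.24), COPI (0.46), Golgi (0.33) and exocytosis (0.51). The SD within COPII was 0.10. With print blocks centred the medians were 0.18, 0.14, 0.12, 0.06 and 0.04 in the same order. With arrays scaled to 1 spread COPI led at 0.18, followed by entry at 0.15 and COPII at 0.14. On arrays 3 and 4 alone COPI had the highest median at 0.21, COPII stood at 0.09, entry at 0.03, Golgi at 0.02 and exocytosis at -0.01. No difference between steps was tested, since their genes share the same 4 arrays.

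In the signs as deposited, the median of the COPI genes lay above 0 and that of the Golgi genes below it on every array. The COPI medians were 0.40, 0.68, 0.08 and 0.26 on arrays 1 to 4, and the Golgi medians were -0.54, -0.21, -0.09 and -0.08, where all features stood between -0.08 and 0.02. Positive means were found for 5 of 7 COPI genes and 7 of 22 Golgi genes, against 46.5% of all features. The median of the means was 0.19 for COPI, -0.22 for Golgi, -0.19 for exocytosis, -0.05 for entry and -0.03 for COPII. If the deposited table already runs in 1 strain direction, these values estimate the strain contrast of these genes, and otherwise their dye effect. Either way they also hold variation between arrays and print blocks, and its part was not tested.

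The COPI genes above 0 on every array in this reading were GEA1, SEC27 and COP1. GEA1 read 0.97, 1.23, 0.59 and 0.73, with a mean of 0.88 ± 0.28. SEC27 averaged 0.69 ± 0.42 and COP1 0.60 ± 0.36. After block centring these 3 averaged 0.77, 0.57 and 0.48. BET3 of TRAPP averaged 0.39 ± 0.10, SEC65 0.21 ± 0.12 and SEC9 0.37 ± 0.58, each above 0 on all 4 arrays.

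The tethering genes on the negative side were led by the COG complex. COG5 read -1.19, -1.20, -1.11 and -0.66, a mean of -1.04 ± 0.25 that was -1.08 after block centring. COG1 read -1.60, -1.08, -0.43 and -0.44, for a mean of -0.89 ± 0.57. COG4 averaged -0.60 ± 0.55, and it was also below 0 on every array. COG6, at -0.32, and COG7, at 0.20, did not keep 1 sign. YPT1 averaged -0.61 ± 0.26, and of TRAPP BET5 averaged -0.45 ± 0.28 and TRS33 -0.34 ± 0.19, each below 0 on all 4 arrays. ARF3 (-0.98 ± 0.64), SEC2 (-0.60 ± 0.24), SPC3 (-0.40 ± 0.13) and SLY41 (-0.21 ± 0.16) completed the route genes below 0 throughout. Block centring brought the means of COG1 to -0.64, COG4 to -0.44, YPT1 to -0.43, BET5 to -0.32 and TRS33 to -0.19. It brought ARF3 to -0.91, SEC2 to -0.45, SPC3 to -0.33 and SLY41 to -0.07.

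As counts these genes were not set apart from the rest of the array. Of the 65 genes 7 were above 0 on all 4 arrays in deposited signs, or 10.8%, against 12.4% of all features. Below 0 on all 4 were 11, or 16.9%, against 12.3%. The genes outside the route added SPC105 to the first number and SPC42 to the second. The steps went different ways, which the pooled shares hide. Of the COPI genes 3 of 7 (42.9%) were above 0 on all 4 arrays and 0 below. Of the Golgi genes 7 of 22 (31.8%) were below 0 on all 4 and 1 above. In COPII both counts were 0, and no difference between steps was tested. In limma 0 of the 65 passed in deposited signs, where 0.00% of all features passed on either side, and the lowest adjusted p among them was 0.42. An unadjusted p under 0.05 was reached by 9 of the 65, or 13.8%, against 11.7% of all features.

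A gene cannot keep 1 sign on all 4 arrays in both readings, since arrays of 1 orientation change sign between them. ERV29, with a deposited mean of 0.47, had 2 of 4 arrays above 0 there, as had ERP2 (-0.25), YIP3 (-0.23) and RET3 (-0.01). Arrays 2 and 4 hold the same values in both readings, so genes high on these arrays tend to have positive means in both. SEC12, SEC24, SEC31 and SEC72 were among the genes with positive means in both, at 0.51, 0.61, 0.48 and 0.61 in deposited signs. Others were SEC66, SEC11, ARF1, GEA1, COP1, SEC27, SEC17 and SEC9. For SEC24 and SEC31 block centring took the deposited means to 0.14 and 0.00. SEC22 had a negative mean in both, at -0.78 in deposited signs, as had SBH2, TRS20, YPT1 and ERV14 among others.

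**Figure D5:**
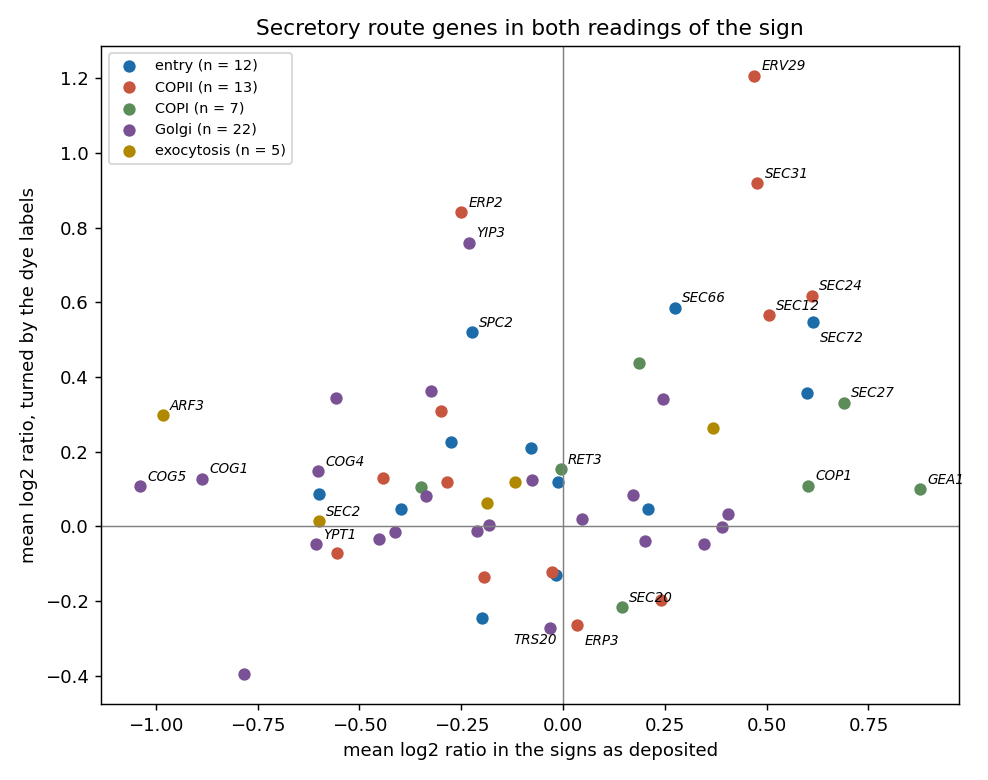
Mean log2 ratio of each secretory route gene over 4 arrays in the signs as deposited (horizontal axis) and turned by the dye labels (vertical axis), coloured by step. ERV29, SEC31, ERP2 and YIP3 are highest on the vertical axis, COP1, SEC27 and GEA1 lie to the right and COG1, COG4, COG5 and ARF3 to the left.

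Other genes of the same route, which the symbol rule does not catch, gave a weaker shift in turned signs. Of 70 listed tethers, SNAREs, Rab and Arf regulators, retrieval receptors and tail-anchor insertion factors, 43 were measured. Their median was 0.01, with 26 positive means (60.5%), against 47.4% of all features. In limma 0 genes passed the threshold (lowest adjusted p = 1.00, 0 genes at an unadjusted p under 0.05 and 1 with ordinary statistics). GYP1, which stimulates GTP hydrolysis by Ypt1, was above 0 on all 4 arrays with a mean of 0.33 ± 0.40. VTI1, a SNARE of the Golgi and vacuole, was below 0 on all 4, at -0.19 ± 0.11. Each was the only such gene of the 43, or 2.33%, against 3.40% of all features above 0 on all 4 and 3.58% below.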

How the data were processed

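The authors deposited 1 normalized log ratio per probe and array, taken here as log2, which they made with limma 3.2.1 per the submitters' processing notes. Its base, dye direction, background correction and normalization method are not stated in the sources. All 4 columns matched a sample by name. Of 6216 probes, 54 had no value on any array. In the platform annotation 3344 probes had 1 symbol, 387 several and 2485 none here, and 3343 of the 3344 matched the R64 gene table. Of the probes with several symbols, 12 held a symbol of the rule and were left out. Probes of a gene were averaged, and features needed values on at least 3 arrays. The turned mean of every feature was compared with 0 by the moderated test of limma 3.58.1 (lmFit, then eBayes; two-sided) under R 4.3.3. The p-values were adjusted over all 5946 features by Benjamini and Hochberg's method and held to a threshold of 0.05. The fit was tested on simulated ratios. The rule for genes named in full took those with 1 sign on all 4 arrays and the 2 highest and 2 lowest means of each step, 22 genes in turned signs. Values by array of other members (SPC2, SEC11, SEC12, SEC24, SEC21 and COP1 among them) were added after they were seen. The members, steps and lists were chosen with earlier results of these data known. Alternatives were the deposited signs, block centring, scaled arrays, array weights, averaged array pairs, ordinary statistics, single probes and leaving out each array. Arrays 3 and 4 alone and arrays 1 and 2 alone were added after seeing the data. A planned promoter motif search was not run, as no sequences were used here.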

Additional observations from a re-analysis of the deposited data

Results flagged for a closer look

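Among 39 sets of 4 array values examined, 2 genes had 1 array far from the other 3. SEC20 read -0.61 on array 1, while its other values lay between -0.11 and -0.04. The gap to the nearest value was 0.88 of its whole range, past Dixon's limit for 4 values. SEC9 read 1.23 on array 2, and its other values lay between -0.15 and 0.03, with a gap of 0.87 of the range. For 4 values of equal spread, chance alone puts about 5% of sets past the limit. That share may not hold here, since arrays 1 to 4 had SDs of 0.87, 0.95, 0.46 and 0.47. The genes examined were also chosen for their signs or extreme means.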

How the results depend on the processing

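No gene of the 65 passed the threshold under any alternative run. Over all features 4 were called with array weights, 2 with arrays 1 and 2 and arrays 3 and 4 averaged first, 10 on arrays 3 and 4 alone, and 0 to 1 when 1 array was left out (1 without array 1). Genes above 0 on all arrays used numbered 7 in deposited signs, 13 on arrays 3 and 4 alone, 19 on arrays 1 and 2 alone and 6 to 11 with 1 array left out. Genes below 0 on all arrays used numbered 11 in deposited signs, 0 with print blocks centred, 10 on arrays 3 and 4 alone, 5 on arrays 1 and 2 alone and 4 to 5 with 1 array left out. Fewer arrays make 1 sign easier to reach. Positive means numbered 27 of 65 in deposited signs, 34 to 44 with 1 array left out and 35 on arrays 3 and 4 alone. The median of the 59 route genes was -0.078 in deposited signs and that of COPII -0.026, and with 1 array left out COPII ran from 0.039 to 0.34. In deposited signs 10 of the 22 genes the rule names in turned signs changed sign: ARF3 (-0.98), COG6 (-0.32), ERP2 (-0.25), ERP3 (0.034), ERP6 (0.24), RET3 (-0.0062), SEC15 (-0.19), SEC2 (-0.60), SEC20 (0.14) and YIP3 (-0.23). With array weights GEA1 did (-0.12), on arrays 3 and 4 alone ARF3 (-0.081) and SEC9 (-0.010), and on arrays 1 and 2 alone SEC2 (-0.11). With 1 array left out 7 of the 22 changed sign: ARF3 ran from -0.25 to 0.66, GEA1 from -0.28 to 0.46, SEC15 from -0.17 to 0.31, SEC2 from -0.20 to 0.31, SEC22 from -0.81 to 0.19, SEC72 from -0.31 to 1.05 and SEC9 from -0.057 to 0.40. Among all 59 route genes 34 changed sign without some array in turned signs and 19 in deposited signs, and 53 and 41 changed sign or moved by over 1.5 times. The cause of these changes was not tested. Block centring and scaling changed the sign of 0 of the 22. Among the other route genes block centring did change signs. COG5 went from 0.11 to -0.17, SRP21 from 0.12 to -0.15 and BET2 from 0.03 to -0.23. SED5 also turned negative, and YPT1, BET3, BET5 and TRS65 turned positive, from means between -0.05 and 0.02. No intensities were used here, so weak spots cannot be set apart.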
